A study of Homo sapiens with 6 samples.

Results

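The clusters of Krüppel-type zinc finger genes on human chromosome 19 were examined in ATAC-seq peak lists of U2OS cells, an established osteosarcoma line. ATAC-seq uses a transposase that cuts open DNA and leaves adapters at the cut, so that a peak marks accessible chromatin. The genotypes were CRAMP1 knockout (CRAMP1-KO) and wild type (WT), with 3 libraries of 50000 cells each. The labels name no further allele, agent or treatment. They also do not say whether the knockout line was 1 clone or whether libraries came from separate cultures, so p-values measure only how far the libraries differ among themselves, which may be technical. Overlapping peaks of the 6 lists were merged into regions, and the members are the 795 regions whose midpoint lies on chromosome 19 (hg19) at 19.8 to 24.4, 36.7 to 38.3, 44.3 to 45.0 or 52.4 to 58.9 Mb. The rule names positions and no measured value, although it and the division of 19q13.4 used below were set with earlier results of these data known. The members were found among 7660 regions on chromosome 19 and 248031 on chromosomes 1 to 22 and X. The lists held 133756, 139242 and 157997 peaks in CRAMP1-KO replicates 1, 2 and 3, and 198875, 151646 and 132686 in WT replicates 1, 2 and 3.

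Most genes in these clusters encode KRAB zinc finger proteins, in which an array of zinc fingers reads a DNA sequence and the KRAB domain recruits the corepressor TRIM28 (KAP1). Many of them silence transposable elements, and the clusters grew by tandem duplication, so that neighbouring genes are often close copies. Their bodies are known to lie in heterochromatin bearing HP1 and methylated histone H3, whereas many of their promoters are CpG-rich and open. CRAMP1 is known as a regulator of the genes of linker histone H1, a protein that binds DNA between nucleosomes and compacts chromatin.

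The 4 intervals did not all carry the label equally well. The interval at 19q13.4 spans 6.5 Mb, and its middle stretch, from 54.1 to 56.6 Mb, holds a microRNA cluster, the leukocyte receptor genes and many unrelated genes instead of a zinc finger cluster. That stretch made up 18.7% of the length but 425 of the 795 members (53.5%). It is therefore described apart, and the other 370 members are called the zinc finger stretches: 39 regions at 19p12, 66 at 19q13.12, 40 at 19q13.31, 71 in the proximal part of 19q13.4 (52.4 to 54.1 Mb) and 154 in its distal part (56.6 to 58.9 Mb).

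Promoters of 5 zinc finger genes are shown because the results below turn on their starts: ZNF430, which carried a peak in all 6 libraries, and ZNF493, which carried none, both at 19p12, and ZNF540, ZNF222 and ZNF264, at which accessibility was lower in CRAMP1-KO cells. Each is 300 bases of the gene's own strand from RefSeq (GRCh38.p14), 250 before the start and 50 from it on, and all 5 lie on the plus strand. In that build they are ZNF430 at chr19:21020407-21020706, ZNF493 at chr19:21396883-21397182, ZNF540 at chr19:37551124-37551423, ZNF222 at chr19:44025129-44025428 and ZNF264 at chr19:57191250-57191549. These positions are not those of the hg19 peak lists. Capitals mark CCGGAAG, the core that ETS factors bind, read on either strand (CTTCCGG on the strand shown), or, in ZNF540, TGCGCA, a part of the NRF1 motif that reads the same on both strands.
ZNF430: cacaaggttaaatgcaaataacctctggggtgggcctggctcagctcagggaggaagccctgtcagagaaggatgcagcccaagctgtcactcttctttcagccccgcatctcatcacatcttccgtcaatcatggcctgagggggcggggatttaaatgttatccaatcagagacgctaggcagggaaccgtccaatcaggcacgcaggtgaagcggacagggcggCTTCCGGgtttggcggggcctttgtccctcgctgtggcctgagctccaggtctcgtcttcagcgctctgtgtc
ZNF493: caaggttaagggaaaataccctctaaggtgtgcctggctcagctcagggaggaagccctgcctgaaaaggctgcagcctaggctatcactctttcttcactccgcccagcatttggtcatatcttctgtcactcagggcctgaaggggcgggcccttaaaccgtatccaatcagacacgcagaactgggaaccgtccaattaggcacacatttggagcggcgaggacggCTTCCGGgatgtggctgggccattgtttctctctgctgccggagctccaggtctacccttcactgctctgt
ZNF540: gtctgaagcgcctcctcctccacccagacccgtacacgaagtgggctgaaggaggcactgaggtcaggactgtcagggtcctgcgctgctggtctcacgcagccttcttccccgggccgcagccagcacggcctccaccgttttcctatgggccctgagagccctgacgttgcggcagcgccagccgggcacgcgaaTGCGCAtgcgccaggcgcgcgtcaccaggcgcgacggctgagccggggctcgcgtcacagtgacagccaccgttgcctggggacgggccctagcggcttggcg
ZNF222: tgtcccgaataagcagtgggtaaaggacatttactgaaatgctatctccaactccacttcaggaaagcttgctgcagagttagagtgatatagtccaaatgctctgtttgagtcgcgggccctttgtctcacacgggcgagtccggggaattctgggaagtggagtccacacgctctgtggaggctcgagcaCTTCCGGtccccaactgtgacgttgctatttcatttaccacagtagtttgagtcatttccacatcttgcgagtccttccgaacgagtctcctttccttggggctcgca
ZNF264: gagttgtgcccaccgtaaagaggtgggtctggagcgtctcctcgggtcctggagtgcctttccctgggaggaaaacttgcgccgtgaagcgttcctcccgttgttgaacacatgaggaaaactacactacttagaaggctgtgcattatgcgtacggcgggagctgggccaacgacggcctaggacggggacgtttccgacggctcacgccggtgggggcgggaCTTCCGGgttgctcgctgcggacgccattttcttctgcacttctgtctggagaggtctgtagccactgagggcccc

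The marked motif began 23 bases before the start of ZNF430, 21 before ZNF493, 53 before ZNF540, 58 before ZNF222 and 26 before ZNF264. The promoters of ZNF430 and ZNF493 were identical at 79.7% of their bases in a global alignment, which was also the median over the 171 pairs of listed 19p12 promoters. Over the 741 pairs from the other stretches the median was 52.7%, and ZNF222 and ZNF264 shared 56.7%. The 19p12 promoters were thus closer copies of each other than those of the other stretches. Of 58 listed zinc finger promoters, 26 (44.8%) held the ETS core on either strand, against 10.3% of all 35116 promoters in the table and 12.9% of the other promoters of chromosome 19. The shares were 68.4% of 19 promoters at 19p12 and 33.3% of 39 elsewhere. The NRF1 letters stood in 24.1% of the listed promoters and 8.24% of all, the GC box GGGCGGG in 34.5% and 33.1%, and TATAAA in 5.17% and 11.5%. In none of the listed promoters did the ETS core overlap another of these motifs. The 19p12 promoters had a median of 10 CpG dinucleotides per 300 bases, the other listed promoters 21, and all promoters 14. These matches describe letters and do not show that a factor binds there.

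Accessible sites were sparse in the zinc finger stretches, in both genotypes. The zinc finger stretches carried 23.8, 25.1 and 26.8 peaks per Mb in the 3 CRAMP1-KO libraries and 31.7, 27.7 and 26.1 in the 3 WT libraries. The rest of chromosome 19 carried 89.2, 90.2 and 102 peaks per Mb in CRAMP1-KO and 125, 104 and 92.8 in WT libraries. The density was 3.73-fold lower than in the rest of the chromosome, and lower in 6 of 6 libraries (two-sided exact sign-flip permutation test, p = 0.0312, the smallest that 6 libraries allow). Over all 4 intervals, middle stretch included, the density was 2.31-fold lower, again in 6 of 6 libraries (exact permutation p = 0.0312).

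**Figure D1:**
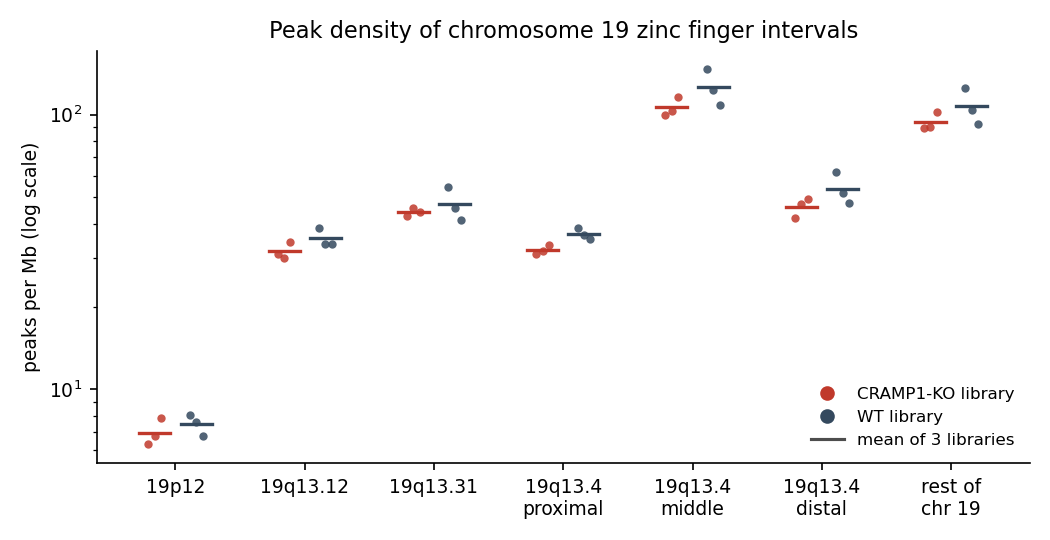
Peaks per Mb (log scale) in each stretch and in the rest of chromosome 19; points are libraries, CRAMP1-KO left and WT right, and lines are means of 3. The 19p12 libraries sit between 6.3 and 8.04 peaks per Mb, all below every other stretch, while the middle of 19q13.4 lies slightly above the rest of the chromosome.

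The cluster at 19p12, which borders the centromere and holds mostly primate-specific genes, was the emptiest. It held 6.3, 6.74 and 7.83 peaks per Mb in CRAMP1-KO libraries and 8.04, 7.61 and 6.74 in WT libraries, 13.9-fold fewer than the rest of the chromosome. The density was 2.98-fold lower at 19q13.12, 2.19-fold at 19q13.31, 2.9-fold in the proximal part of 19q13.4 and 2.01-fold in its distal part, each in 6 of 6 libraries. The middle stretch instead held slightly more peaks than the rest of the chromosome, by 0.20 ± 0.03 on the log2 scale (SD, n = 6, exact sign-flip permutation p = 0.0312). The rest was counted at its full length of 45.7 Mb, which includes most of a 3.89-Mb stretch without a peak in any library. Leaving that stretch out would make this excess smaller and the deficits of the other stretches larger. The peak caller's local background was also low at 19p12: it stood at the library's lowest level in 71.4% to 81.1% of the peaks there and in 8.25% to 14.7% of those of the rest of the chromosome. How reads from near-identical copies were mapped is not given in the sources used here, and its part in these densities was not tested.

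The deficit did not differ detectably between genotypes. Relative to the rest of the chromosome, the log2 density of all intervals was −1.22 ± 0.03 in CRAMP1-KO and −1.20 ± 0.04 in WT (SD, n = 3 each, two-sided exact permutation p = 0.7), and in the zinc finger stretches −1.90 ± 0.05 and −1.91 ± 0.07 (exact permutation p = 0.9). With 3 libraries against 3 this test cannot give a p below 0.1. Tested per 1-Mb bin over the genome with limma, 0 of 11 member bins were called at an adjusted p of 0.05. These bins cover the clusters only in part. At 19p12 only those from 21 to 22 and from 23 to 24 Mb had the mean of at least 5 peaks required. Bins were assigned by their midpoint, so some, such as that from 44 to 45 Mb, reach outside the intervals. The background was 6.75% of 2828 bins called lower and 18.1% called higher in CRAMP1-KO. At an unadjusted p of 0.05, beside 329 lower and 757 higher among all 2828 bins, limma called 1 member bin lower and 0 higher. That bin, from 54 to 55 Mb in the middle stretch, held 101, 105 and 115 peaks in CRAMP1-KO and 151, 137 and 114 in WT libraries (log2 change of its share −0.17, SE 0.07, limma adjusted p = 0.078). Without WT replicate 1, limma called 2 member bins lower, and 1 with lists of equal length or with scaling by the median log ratio over bins. Over all bins it called 255 of 2828, 104 of 2823 and 389 of 2828 lower in these settings.

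The few sites of the zinc finger stretches were shared between libraries and wide. Of their 370 regions, 228 (61.6%) had a peak in all 6 libraries, compared with 3047 of 6865 (44.4%) in the rest of the chromosome and 37.3% of all regions. The share was highest in the proximal part of 19q13.4, at 71.8%, and 69.2% at 19p12, while the middle stretch had 44.7%. Peaks in the zinc finger stretches had a median width of 799, 784 and 779 bp in CRAMP1-KO libraries and 676, 763 and 724 bp in WT libraries. Within each library they were wider than those of the rest of chromosome 19 by 248 ± 12.2 bp (SD, n = 6, higher in 6 of 6, exact sign-flip permutation p = 0.0312). In the proximal part of 19q13.4 the difference reached 469 ± 30.5 bp, whereas in the middle stretch it was −9.17 ± 14.9 bp (exact sign-flip permutation p = 0.219).

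Peaks were wider in CRAMP1-KO than in WT libraries both inside and outside the clusters. Median widths over all intervals were 662 ± 9.87 bp in CRAMP1-KO and 570 ± 48.8 bp in WT, and over the rest of chromosome 19 544 ± 7.21 bp and 468 ± 36.5 bp (SD, n = 3 each; both two-sided exact permutation p = 0.1, groups not overlapping). The genotypes overlapped at 19p12, with 641 ± 7.02 bp in CRAMP1-KO and 600 ± 57.8 bp in WT (exact permutation p = 0.4). They also overlapped at 19q13.12, with 832 ± 6.17 bp and 824 ± 41.5 bp (exact permutation p = 0.9). The excess of the zinc finger stretches over the rest was 244 ± 12.8 bp in CRAMP1-KO and 252 ± 12.4 bp in WT (exact permutation p = 0.4). At 19q13.12 that excess was smaller in CRAMP1-KO, at 288 ± 1.04 bp, than in WT, at 355 ± 8.08 bp, with no overlap (exact permutation p = 0.1, adjusted p = 0.6 over 6 stretches).

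The genotypes separated in the height of the shared sites. Pileup, the number of reads or fragments stacked at a peak's summit, was solved from the deposited fold enrichment and −log10 p of each peak. Its unit is written as fragments below, although the unit that the peak caller counted is not given. Over regions called in all 6 libraries, the median log2 pileup of the zinc finger stretches exceeded that of the rest of chromosome 19 by 0.10, 0.14 and 0.06 in the CRAMP1-KO libraries and by 0.34, 0.32 and 0.43 in the WT libraries. The mean excess was 0.10 ± 0.04 in CRAMP1-KO and 0.37 ± 0.06 in WT, a difference of −0.27 with every CRAMP1-KO library below every WT library (two-sided exact permutation p = 0.1, the smallest this design allows). Over all intervals the difference was −0.13 (exact permutation p = 0.1, no overlap). In bulk cells, fewer cells with an open site and less opening per cell cannot be told apart.

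**Figure D2:**
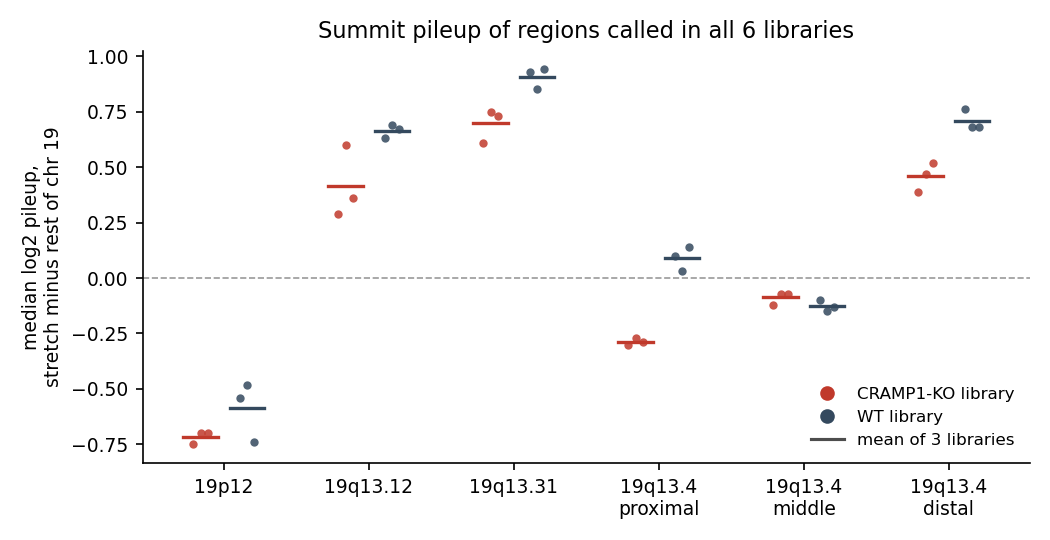
Median log2 pileup of each stretch minus that of the rest of chromosome 19, over regions called in all 6 libraries; points are libraries, CRAMP1-KO left and WT right, and lines are means of 3. All CRAMP1-KO libraries lie below all WT libraries at 19q13.12, 19q13.31 and the proximal and distal parts of 19q13.4, but not at 19p12 or in the middle stretch.

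The proximal part of 19q13.4 differed by the largest amount among the 6 stretches. Its median log2 pileup stood at −0.30, −0.27 and −0.29 relative to the rest of the chromosome in CRAMP1-KO libraries and at 0.10, 0.03 and 0.14 in WT libraries, a difference of −0.38. At 19q13.12 the relative values were 0.29, 0.60 and 0.36 in CRAMP1-KO and 0.63, 0.69 and 0.67 in WT, at 19q13.31 0.61, 0.75 and 0.73 in CRAMP1-KO and 0.93, 0.85 and 0.94 in WT, and in the distal part of 19q13.4 0.39, 0.47 and 0.52 in CRAMP1-KO and 0.76, 0.68 and 0.68 in WT. These 4 stretches each had an exact permutation p of 0.1 without overlap (adjusted p = 0.15 over the 6 stretches). At 19p12 the genotypes overlapped on this scale, with −0.72 ± 0.03 in CRAMP1-KO and −0.58 ± 0.13 in WT (SD, n = 3 each, exact permutation p = 0.3).

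Relative to the rest of chromosome 19, the middle stretch did not share this difference. Its relative log2 pileup was −0.12, −0.07 and −0.07 in CRAMP1-KO and −0.10, −0.15 and −0.13 in WT libraries (difference 0.04, exact permutation p = 0.2). Against the library's median over all shared regions, every stretch was lower in CRAMP1-KO without overlap (exact permutation p = 0.1 each). That difference was −0.07 in the middle stretch, −0.24 at 19p12 and −0.48 in the proximal part of 19q13.4. The rest of chromosome 19 was also lower in CRAMP1-KO on that scale, so a shift there is not particular to the stretches. Median log2 pileup of the rest averaged 6.22 in CRAMP1-KO and 6.42 in WT libraries, beside 6.16 and 6.26 over all shared regions. Set directly against the middle stretch, the zinc finger stretches were higher by 0.22, 0.21 and 0.13 in CRAMP1-KO and by 0.44, 0.47 and 0.56 in WT libraries, a difference of −0.31 with no overlap (two-sided exact permutation p = 0.1). The local background at the same summits moved with the pileup: in the zinc finger stretches it stood at −0.71 ± 0.07 relative to the rest of the chromosome in CRAMP1-KO and −0.53 ± 0.05 in WT on the log2 scale (difference −0.18, exact permutation p = 0.1, no overlap). In the middle stretch the background difference was 0.01 (exact permutation p = 0.3). The part of the background in the pileup difference was not tested.

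Per region, the test was run with limma on log2 pileup over all 92505 regions called in all 6 libraries, each library centred on its median, and called changes at an adjusted p of 0.05. The members gave 88 lower and 7 higher regions among 418 tested (21.1% and 1.67%), beside a background of 9.78% lower and 7.34% higher over all regions and of 11.5% lower in the rest of chromosome 19. The other 377 members lacked a peak in at least 1 library and were not tested. The zinc finger stretches gave 64 lower regions among 228 (28.1%) and 1 higher, with a median log2 change of −0.32, and 93.9% of them lay below 0. The median was −0.15 in the rest of the chromosome and −0.07 over all regions, with 73.2% and 58.7% of regions below 0. The middle stretch, with 24 lower and 6 higher among 190, a median of −0.15 and 77.9% below 0, stood near the rest of the chromosome.

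**Figure D3:**
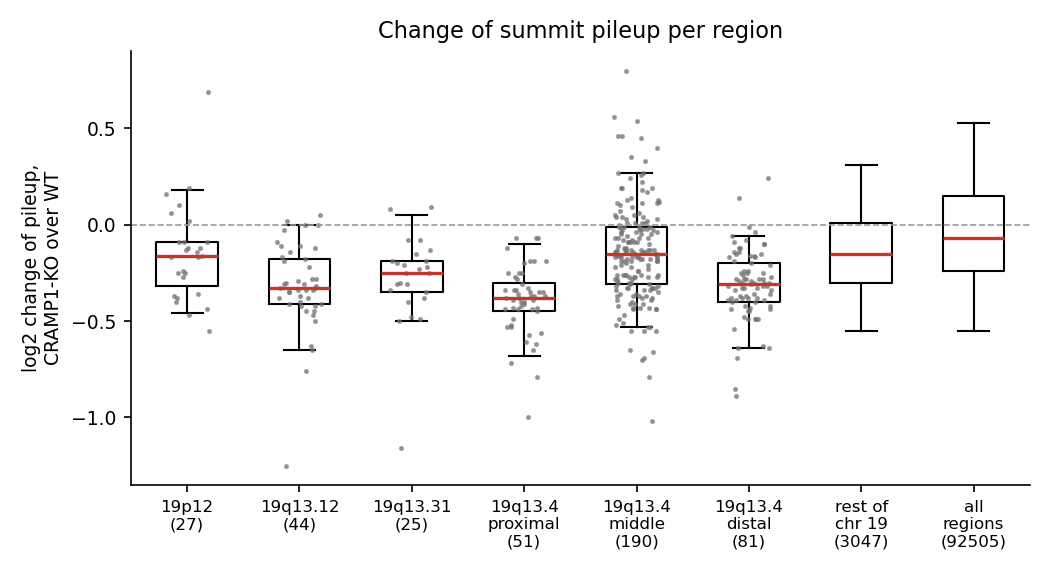
Log2 change of summit pileup, CRAMP1-KO over WT, per region called in all 6 libraries; red lines are medians, boxes run from the 25th to the 75th percentile, whiskers from the 5th to the 95th, grey points are single regions and numbers in brackets are regions. The proximal part of 19q13.4 lies wholly below 0 with a median of −0.38, while the middle stretch and the rest of the chromosome both have a median of −0.15.

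By stretch, 22 of 51 regions in the proximal part of 19q13.4 were called lower (43.1%). All 51 of 51 had a change below 0, beside 73.2% of the rest of the chromosome and 58.7% of all regions. At 19q13.12 limma called 11 of 44 lower (median −0.33), at 19q13.31 5 of 25 (median −0.25) and in the distal part of 19q13.4 24 of 81 (median −0.31). At 19p12 it called 2 lower and 1 higher among 27 (median −0.16). The counts depended on the scaling: centred on the rest of chromosome 19 instead, which raises the median of all regions to 0.04, limma called 34 members lower and 8 higher. Over all regions it called 5.35% lower and 11.8% higher. In the zinc finger stretches it then called 23 lower (10.1%) beside 5.35% of all regions, with a median of −0.21. Leaving out any 1 library gave 34 to 53 members called lower, fewest without WT replicate 3 and most without CRAMP1-KO replicate 2, and 25 to 37 in the zinc finger stretches, where the median stayed between −0.29 and −0.34. Over all regions, 5.33% to 7.11% were then called lower.

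The lower pileup was seen at all levels of accessibility. With all 92505 regions split into quintiles by mean pileup, the median log2 change of the zinc finger stretches was −0.29, −0.25, −0.34, −0.35 and −0.28 in the lowest to the highest quintile. The rest of chromosome 19 had −0.10, −0.11, −0.09, −0.17 and −0.22, and all regions −0.03, 0.02, −0.00, −0.07 and −0.16. By quintiles of width the zinc finger stretches had −0.38, −0.29, −0.30, −0.32 and −0.33. The lowest width quintile held 13 of their regions. The split by level was added after seeing the data and carries no test.

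**Figure D4:**
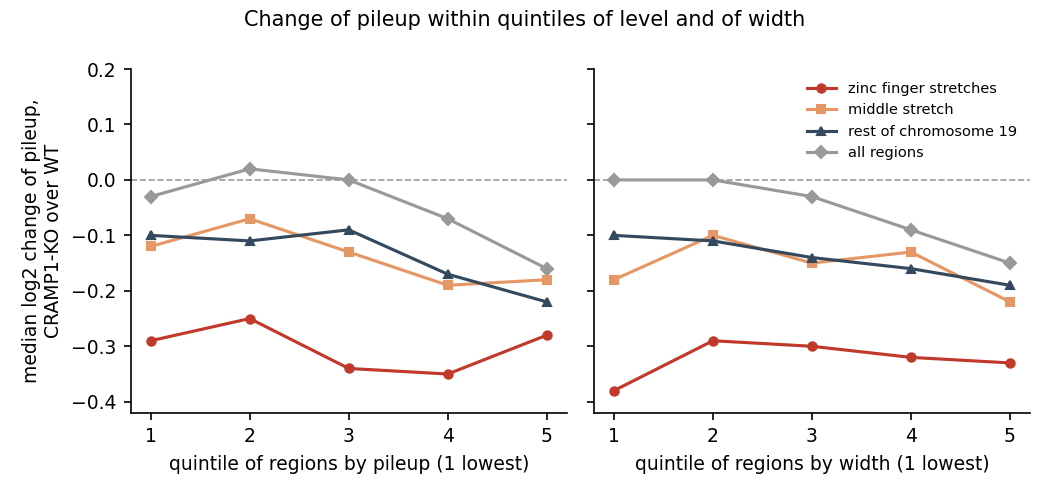
Median log2 change of pileup, CRAMP1-KO over WT, within quintiles of all tested regions by mean pileup (left) and by width (right). The zinc finger stretches lie between −0.25 and −0.38 in every quintile, below the middle stretch, the rest of chromosome 19 and all regions.

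The largest falls came from all zinc finger stretches but 19p12, and from the middle stretch. Values are pileup relative to the library's median over the 92505 shared regions, which is set to 1. The region at chr19:37742263-37743049 (hg19, 787 bp, 19q13.12) had 1.13, 1.11 and 0.948 in CRAMP1-KO and 2.34, 2.64 and 2.58 in WT libraries (log2 change −1.25, SE 0.12, limma adjusted p = 0.000431). All CRAMP1-KO libraries were thus near the median site, and all WT libraries well above it. At chr19:44905175-44905896 (19q13.31) the values were 1.26, 1.06 and 1.03 in CRAMP1-KO and 2.34, 2.48 and 2.64 in WT (log2 change −1.16, SE 0.12, limma adjusted p = 0.000599). In the proximal part of 19q13.4, chr19:53558275-53559160 had 0.59, 0.823 and 0.542 in CRAMP1-KO and 1.32, 1.18 and 1.34 in WT (0.501-fold, limma adjusted p = 0.00282).

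In the distal part of 19q13.4, chr19:58570382-58571120 had 0.721, 0.79 and 0.99 in CRAMP1-KO and 1.43, 1.53 and 1.64 in WT libraries (log2 change −0.89, SE 0.14, limma adjusted p = 0.00261). Another, chr19:54342015-54342590, lies in the middle stretch, with 0.525, 0.484 and 0.708 in CRAMP1-KO and 1.25, 0.966 and 1.25 in WT (log2 change −1.02, SE 0.16, limma adjusted p = 0.00306). The genotypes did not overlap at any of these 5 regions. They were picked as the largest called falls in the same libraries, so this follows largely from the choice. Each stayed called under every alternative tried. The local background at 37742263 was lower too, at 3.83, 3.37 and 4.58 fragments in CRAMP1-KO and 10.42, 10.63 and 6.05 in WT. None of the 5 lies at one of the gene starts checked below, which do not cover every gene of the intervals.

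Rises were few and mostly in the middle stretch. The largest, chr19:55165911-55166856, had 1.43, 1.18 and 1.09 in CRAMP1-KO and 0.67, 0.575 and 0.906 in WT libraries (log2 change 0.80, SE 0.17, limma adjusted p = 0.011). The single rise in a zinc finger stretch, chr19:24173852-24174267 at 19p12, had 0.574, 0.565 and 0.74 in CRAMP1-KO and 0.351, 0.333 and 0.491 in WT (log2 change 0.69, SE 0.17, limma adjusted p = 0.0187); its call was lost in 3 of 10 alternatives. The other named rises, at chr19:56271154-56271604, chr19:55606567-55608050 and chr19:55008907-55009676, all in the middle stretch, changed by 0.56, 0.46 and 0.46. Their calls were lost in 2, 4 and 5 of 10 alternatives, and that of the largest rise in 0 of 10. The region at 56271154 was weak, with 19, 22 and 28 fragments in CRAMP1-KO and 22, 17 and 12 in WT libraries.

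Of the 8 regions with the highest pileup in their interval, limma called 1 lower and 0 higher. These are too few to set apart from the background of 9.78% lower and 7.34% higher over all regions. The highest pileup of all members was at chr19:55849823-55851652 in the middle stretch, with 6, 7.24 and 4.99 in CRAMP1-KO and 6.29, 8.1 and 8 in WT libraries (log2 change −0.30, limma adjusted p = 0.198), followed by chr19:54640413-54642116 (−0.15, limma adjusted p = 0.52). At 19p12 the highest were chr19:20162604-20163622 and chr19:19886830-19887880. The region starting at 20162604 had a log2 change of −0.09 (limma adjusted p = 0.705), and that at 19886830 fell, with 1.3, 1.37 and 1.74 in CRAMP1-KO and 1.95, 1.86 and 2.11 in WT (log2 change −0.44, SE 0.13, limma adjusted p = 0.0463, lost in 7 of 11 alternatives). At 19q13.12, chr19:36939908-36940732 had 3.61, 3.69 and 3.3 in CRAMP1-KO and 3.44, 3.66 and 3.47 in WT, with overlapping genotypes (log2 change 0.00, limma adjusted p = 0.987). At 19q13.31 the highest was chr19:44351386-44352593 (log2 change −0.08, limma adjusted p = 0.694). The remaining 2, which lie at the starts of ZNF146 and ZNF225 and are described with them, changed by −0.35 and −0.31.

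The widest members called in all libraries were chr19:55894709-55897815 (3107 bp) and chr19:54409909-54412921 (3013 bp) in the middle stretch and chr19:57348516-57351431 (2916 bp) in the distal part of 19q13.4. Their log2 changes were −0.27, −0.09 and −0.10, and none passed the limma test (adjusted p = 0.17, 0.598 and 0.637).

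Sites called in only one genotype were rare. In CRAMP1-KO only, 2 of 795 members had a peak in all 3 libraries (0.252%, beside a background of 0.767% over all regions), and in WT only 13 had one (1.64%, beside 1.14%). The rest of chromosome 19 had 19 and 68 (0.277% and 0.991%). The zinc finger stretches held 0 of the CRAMP1-KO-only and 7 of the WT-only regions, 2 of them at 19q13.12, 1 in the proximal and 4 in the distal part of 19q13.4. With a library left out, the rule asks for fewer libraries, so these counts can rise by that alone. WT-only members were 31 without CRAMP1-KO replicate 3, 23 without WT replicate 2 and 37 without WT replicate 3. CRAMP1-KO-only members were 4 without CRAMP1-KO replicate 1 and 5 without WT replicate 1. No share over all regions is given for these settings.

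The CRAMP1-KO-only sites were weak. The WT-only sites ranged more widely, with median pileups from 16 to 59 fragments, but all lay below the median of members called in all 6 libraries. The CRAMP1-KO-only regions, chr19:54783215-54783789 and chr19:55735461-55736119, had pileups of 17, 13 and 21 and of 15, 15 and 23 fragments and a median −log10 q of 4.19 and 2.74. Among WT-only members the strongest were chr19:54162473-54162812 in the middle stretch, with 61, 59 and 30 fragments, chr19:37663377-37663872 at 19q13.12, with 62, 48 and 17, and chr19:55412547-55412911, with 35, 28 and 23. Their median −log10 q was 40.4, 33.5 and 13.6, and over all 13 WT-only members it ranged from 2.31 to 40.4 with a median of 7.11. The median pileup was 20 fragments over the WT-only members and 85 over members called in all 6 libraries. A peak list gives no value where no peak was called, so how far the other genotype fell below the caller's threshold is unknown.

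Zinc finger gene starts carried a peak in all libraries or in none. No hg19 annotation was used here, so 87 gene starts were written by hand, and 50 of them, 44 of zinc finger genes, passed a check of strand and gene length against the RefSeq gene tables. A peak within 1 kb counted as at the start. Of the 44 zinc finger starts, 31 had a peak in all 6 libraries and 13 had none in any, and no start had a peak in some libraries only. At 19p12 only 6 of 17 starts carried a peak, against 11 of 11 at 19q13.12, 6 of 7 at 19q13.31, 5 of 5 in the proximal and 3 of 4 in the distal part of 19q13.4.

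The 11 starts without a peak at 19p12 were those of ZNF93, ZNF90, ZNF486, ZNF626, ZNF85, ZNF714, ZNF493, ZNF100, ZNF43, ZNF257 and ZNF681. ZNF93 is known for silencing LINE-1 elements. The hand-written start of ZNF43 did not match the spacing to its neighbours in the tables. Outside 19p12, ZNF229 at 19q13.31 and ZNF154, a gene whose promoter is often methylated in tumours, in the distal part of 19q13.4 had none. At 19q13.12, ZFP82 and the divergent pair ZNF529 and ZNF382, checked by spacing only, also had none, so that 14 of 17 starts checked in that way carried a peak there. The 13 starts without a peak that had passed the length check also had none within 2 kb. Among promoters with a sequence at 19p12, the 7 with a peak and the 12 without had the same median of 10 CpG dinucleotides, and 5 and 8 of them held the ETS core. In the other stretches, the 34 promoters with a peak had a median of 20 CpG dinucleotides and the 5 without had 27, and 13 and 0 of them held the ETS core.

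**Figure D5:**
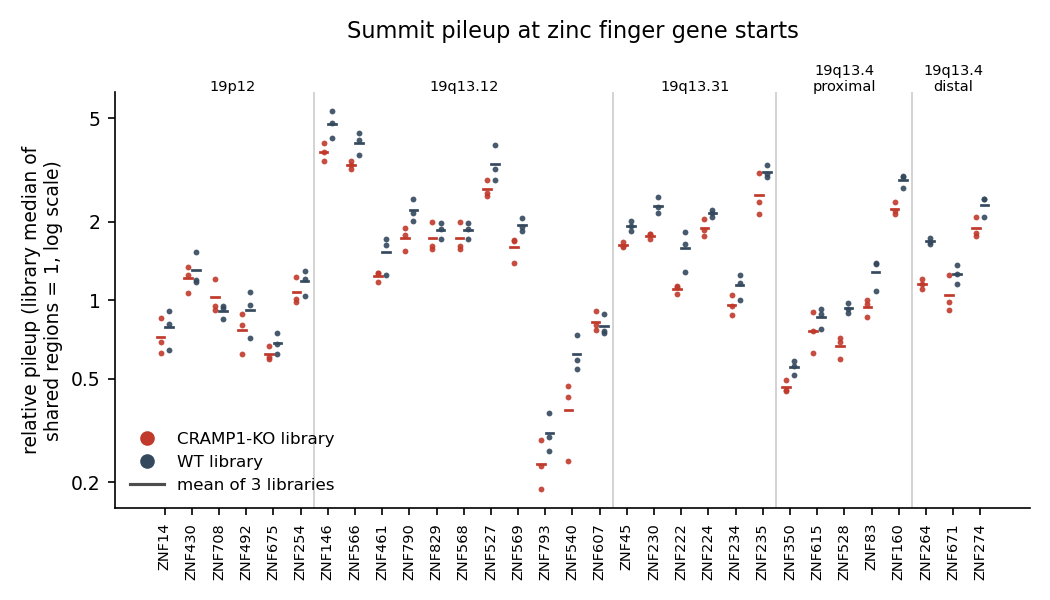
Summit pileup relative to the library's median over shared regions (log scale) at the 31 zinc finger gene starts with a peak in all 6 libraries, in order along the chromosome; points are libraries, CRAMP1-KO left and WT right, and lines are means of 3. ZNF829 and ZNF568 share a region. Most CRAMP1-KO means lie below the WT means, those of ZNF708 and ZNF607 above.

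The 31 starts lay in 30 regions, since ZNF829 and ZNF568, a divergent pair, share one. Of the 30, limma called 7 lower and 0 higher (23.3% lower, beside a background of 9.78% of all regions). Of the same 30, 28 had a change below 0, beside 58.7% of all regions, and the median was −0.28. In the same stretches, 185 regions with no listed start gave 55 lower (29.7%) and a median of −0.33. These 185 can include starts of genes that were not listed or did not pass a check. The lower pileup was therefore not limited to the listed starts, but starts were not compared with sites away from any gene start. With starts checked by spacing in place of gene length, an added alternative, 39 distinct regions gave 9 lower and a median of −0.29.

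The called starts belong to genes of 4 stretches, and most encode KRAB zinc finger proteins. ZNF264, in the distal part of 19q13.4, had a relative pileup of 1.11, 1.15 and 1.21 in CRAMP1-KO and 1.73, 1.64 and 1.68 in WT libraries (log2 change −0.54, SE 0.11, limma adjusted p = 0.00764). Its region, chr19:57702377-57703743 in hg19, covers the start whose promoter, with the ETS core and a GC box, is printed above. It stayed called in 11 of 11 alternatives, and no other called start did so in all of its own. ZNF528, in the proximal part of 19q13.4, had 0.689, 0.597 and 0.719 in CRAMP1-KO and 0.897, 0.977 and 0.925 in WT (log2 change −0.49, SE 0.12, limma adjusted p = 0.0184, called in 8 of 10 alternatives).

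In the same part, ZNF83 had 1, 0.968 and 0.865 in CRAMP1-KO and 1.39, 1.38 and 1.09 in WT libraries (log2 change −0.44, limma adjusted p = 0.0397). ZNF160 had 2.2, 2.39 and 2.14 in CRAMP1-KO and 2.71, 2.98 and 3 in WT (log2 change −0.37, limma adjusted p = 0.0433). Neither gene's genotypes overlapped, which again follows largely from naming called starts. At 19q13.31, ZNF222 had 1.13, 1.06 and 1.12 in CRAMP1-KO and 1.64, 1.28 and 1.83 in WT (log2 change −0.50, limma adjusted p = 0.0336), and its neighbour ZNF230 had 1.8, 1.79 and 1.72 in CRAMP1-KO and 2.28, 2.16 and 2.49 in WT (log2 change −0.38, limma adjusted p = 0.0381).

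At 19q13.12, ZNF540, whose promoter carries the NRF1 letters, had 0.426, 0.242 and 0.469 in CRAMP1-KO and 0.588, 0.736 and 0.547 in WT libraries (log2 change −0.76, SE 0.22, limma adjusted p = 0.0377). It had the largest fall among the starts and one of the lowest levels. The calls at ZNF83, ZNF160, ZNF222, ZNF230 and ZNF540 were each lost in 6 to 9 of the alternatives tried, among them single libraries left out, with no change of direction.

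Among zinc finger starts that passed the length check, the highest of 19q13.12 and 19q13.31 were not called, whereas ZNF160, the highest of 19q13.4, was. ZNF444 in the distal part, checked by spacing only, stood higher, with a median over libraries of 3.51 against 2.55 at ZNF160. It was also called lower (log2 change −0.39, limma adjusted p = 0.0482). ZNF146, which encodes a protein made almost wholly of zinc fingers without a KRAB domain, had the highest of the checked starts in 19q13.12, at 3.44, 4.03 and 3.7 in CRAMP1-KO and 4.21, 4.79 and 5.32 in WT libraries (log2 change −0.35, SE 0.13, limma adjusted p = 0.0751). Its region, chr19:36704973-36706343, was also the highest of all members at 19q13.12. ZNF566 came next among the starts, at 3.31 ± 0.119 in CRAMP1-KO and 4.03 ± 0.391 in WT (SD, n = 3 each, limma adjusted p = 0.116). The lowest start there was ZNF793, at 0.23, 0.29 and 0.188 in CRAMP1-KO and 0.299, 0.368 and 0.264 in WT (limma adjusted p = 0.125). Among the length-checked starts of 19q13.31, ZNF235 and ZNF224 were highest, with log2 changes of −0.31 and −0.19, and ZNF234 and ZNF222 lowest. ZNF224 is known as a KRAB repressor. The start of its neighbour ZNF225, checked by spacing only, lies in one of the 2 highest regions of that interval, chr19:44617081-44618206 (log2 change −0.31, limma adjusted p = 0.117).

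At 19p12 the starts with a peak were modest. ZNF430 had 1.25, 1.34 and 1.07 in CRAMP1-KO and 1.2, 1.18 and 1.53 in WT libraries, with overlapping genotypes (log2 change −0.09, limma adjusted p = 0.672), and ZNF254 1.07 ± 0.135 in CRAMP1-KO and 1.18 ± 0.131 in WT (SD, n = 3 each, limma adjusted p = 0.485). Of the length-checked starts, ZNF675 and ZNF14 were lowest, at 0.623 ± 0.0378 and 0.723 ± 0.119 in CRAMP1-KO and 0.683 ± 0.0623 and 0.788 ± 0.135 in WT. None of the 6 starts there was called, and their log2 changes ran from −0.25 at ZNF492 to 0.16 at ZNF708. ZNF91, a repressor of SVA retrotransposons that was checked by spacing only, changed by −0.37 (SE 0.17, limma adjusted p = 0.149).

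ZNF274, whose protein is known to bring the methyltransferase SETDB1 to zinc finger genes themselves, had 1.82, 2.08 and 1.77 in CRAMP1-KO and 2.45, 2.44 and 2.09 in WT libraries at its own start (log2 change −0.30, SE 0.12, limma adjusted p = 0.109). The lowest zinc finger start of the 19q13.4 interval was ZNF350, at 0.464 ± 0.0243 in CRAMP1-KO and 0.553 ± 0.034 in WT (SD, n = 3 each, limma adjusted p = 0.137).

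Genes of other kinds in the intervals served as landmarks. In the middle stretch, PPP1R12C, a regulatory subunit of a protein phosphatase, had 3.27 ± 0.439 in CRAMP1-KO and 3.91 ± 0.329 in WT (log2 change −0.26, limma adjusted p = 0.188). The splicing factor genes PRPF31 and U2AF2 changed by −0.08 and −0.03 (limma adjusted p = 0.675 and 0.89), and LILRB1, a leukocyte receptor gene, had no peak. PPP2R1A, the scaffold subunit of phosphatase PP2A, lies within the proximal part of 19q13.4 and was checked by spacing only: it had 4.64 ± 0.766 in CRAMP1-KO and 5.63 ± 0.766 in WT (log2 change −0.28, limma adjusted p = 0.214). In the distal part, AURKC, a kinase gene of meiosis, had a peak in 2 libraries, 1 of each genotype, and A1BG, which encodes a plasma protein, had none.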

How the data were processed

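ATAC-seq was measured in 3 CRAMP1-KO and 3 WT U2OS libraries, grouped by the genotype in the labels. The submitters' processing notes list bcl2fastq 2.20.0, cutadapt 3.4, the aligner BWA 0.7.17-r1188, the hg19 build and the peak caller MACS3. The MACS3 version and settings, the handling of duplicate and multiply mapped reads and any transposase shift are not stated there. The authors deposited 1 peak list per library, with a score that is 10 times −log10 q. As deposited, fold enrichment is summit pileup over local background (a ratio), and −log10 p and −log10 q rate that excess. The lists hold no read counts, so depth is unknown and no counting interval is given. Median pileup over shared regions was 61, 62 and 96 fragments in CRAMP1-KO and 97, 87 and 53 in WT replicates 1, 2 and 3.

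Pileup and background were solved from fold enrichment and −log10 p, and 100% of peaks gave a whole pileup within 0.01. The solver and the limma fits were tested on simulated data. Peaks overlapping by 1 bp were merged into regions, and the highest summit per library was kept. Log2 pileup of regions called in all 6 libraries was tested with limma 3.58.1 in R 4.3.3 after centring each library on its median, with Benjamini-Hochberg adjustment over all regions and a threshold of 0.05. Peak shares per 1-Mb bin (mean of at least 5 peaks, pseudocount 0.5 peaks, prior variance with a trend) were tested likewise. Single values per library were compared by two-sided exact permutation over 20 assignments, and within libraries by 64 sign flips. The remaining work was done in Python 3.11.15 with scipy 1.17.1, pandas 2.3.3, numpy 2.4.6 and matplotlib 3.10.9.

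The members, the division of 19q13.4 and the gene list were chosen with earlier results of these data known. Named regions were, per interval, the 2 highest by median pileup, up to 5 called regions per direction with the largest change, up to 3 genotype-only regions per direction and the 3 widest. Named starts were those called, per interval the 2 highest and 2 lowest, those without a peak and fixed landmarks, of which 1 is not reported here. Of 87 hand-written hg19 gene starts, 86 were in the RefSeq gene table and 71 had a promoter sequence (GRCh38.p14). A start was used if its gene had the same strand and a length within 2 kb there. Other checked genes are named from the spacing check. Promoter motifs were chosen after seeing the data. As alternatives, q limits were raised, lists brought to equal length, and other scalings, filters, bin sizes, overlaps and distances, a replicate block, the intervals without the middle stretch and the removal of each library were tried.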

Additional observations from a re-analysis of the deposited data

How the results depend on the processing

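No result of the comparisons changed direction with the choice of q limit, list length or scaling except the width difference between genotypes. That difference was 16.3 bp over all intervals and turned to −8.33 bp at −log10 q of at least 5, to −14 bp at 10 and to −8.83 bp without the middle stretch, and no value passed the exact permutation test. Without the middle stretch the density difference between genotypes turned from −0.02 to 0.01, and the excess of pileup over the rest of chromosome 19 grew from 0.09 (exact sign-flip permutation p = 0.0625) to 0.23 (p = 0.0312). The pileup difference between genotypes lay between −0.12 and −0.27 under all alternatives, each with every CRAMP1-KO library below every WT library, except that the comparison of same-numbered libraries (replicate block) gave −0.13 with p = 0.25, the smallest exact sign-flip p it allows.

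With 5 libraries the sign-flip test cannot go below 0.0625: the density deficit then ran from −1.20 to −1.22 and the width excess from 106 to 113 bp. Members called lower by limma numbered 88. They were 34 centred on the rest of chromosome 19, 154 with trend and robust estimation, and 34 to 53 without 1 library. The share of all regions called lower moved too, from 9.78% to 5.35%, 15.5% and 5.33% to 7.11% in that order. Members called higher numbered 7, with 4 under the replicate block, 2 among regions above the median pileup and 2 to 5 without 1 library. Of all regions, 7.34%, 6.64%, 11.7% and 4.51% to 5.44% were called higher in these settings. CRAMP1-KO-only members numbered 0 at −log10 q of at least 5 and 2 to 5 without 1 library, and WT-only members 13 to 37. Without 1 library the rule asks for fewer libraries, which by itself lets these counts rise. Member bins called lower, 0 of 11 in the report, were 1 with equal lists, 1 with the median log ratio and 0 to 2 without 1 library. Over all bins, 104 of 2823, 389 of 2828 and 82 to 255 of 2828 were called lower in these settings. The cause of the other shifts was not tested.

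The replicate numbers did not pair the libraries: correlations of deviations for same-numbered libraries were 0.06, 0.06 and −0.09. With the block, limma called 67 members lower and 4 higher (16% and 0.957%), beside 8.29% and 6.64% of all regions. The block changed no other call on the comparisons. Among single regions, 20162604 turned to 0.01 centred on the rest of chromosome 19 and ranged from −0.23 to 0.04 without 1 library, 36939908 ranged from −0.03 to 0.05 without 1 library, 44351386 turned to 0.06 by quantile normalization, 0.03 centred on the rest and 0.00 among the regions of higher pileup, 54640413 to 0.02 by quantile normalization, 54409909 to 0.04 by quantile normalization and 0.02 centred on the rest, and 57348516 to 0.04 and 0.00 by the same 2 scalings, with −0.21 to 0.00 without 1 library. None of these was called. Starts with a peak in all 6 libraries were 34, landmarks included, at 500 bp, 1 kb and 2 kb, and 45 with the spacing check. Low pileup limits the 2 CRAMP1-KO-only sites and the weaker WT-only ones, which lie near the caller's threshold.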
